A study of Homo sapiens with 6 samples.

Results

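The U4 and U5 small nuclear RNAs (snRNAs) are short non-coding RNAs of the spliceosome. Here they are the genes RNU4-1, RNU4-2, RNU5A-1, RNU5B-1, RNU5D-1 and RNU5E-1, chosen by name, with every cross-link position that lies inside their GENCODE release 44 spans on the same strand. These are 6 of 62700 annotated genes. They hold 364 of the 1179243 cross-link positions recorded in DoHH-2 cells and 129 of the 78474 recorded in GM01953 cells.

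The positions come from iCLIP of eIF4B, a translation initiation factor that stimulates the helicase eIF4A. In iCLIP, cells are irradiated with UV so that proteins become covalently linked to the RNA they touch, the protein is immunoprecipitated, and the place where reverse transcription stops marks the cross-link to the nearest base or so. The cell lines were DoHH-2, a diffuse large B-cell lymphoma (DLBCL) line, and GM01953, the control B-cell line, both untreated and immunoprecipitated with an anti-eIF4B antibody. According to the labels there were 4 DoHH-2 replicates and 2 GM01953 replicates, but each cell line has 1 deposited table, made from pooled replicates. There is therefore no SD and no test between the cell lines. A ratio compares 2 pooled libraries, not the conditions behind them, and all intervals given here are 95% intervals that cover counting error only.

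U4 and U5 enter the spliceosome together, as parts of the tri-snRNP. U4 pairs with U6 through long stretches of complementary sequence and keeps U6 inactive until the helicase SNRNP200 unwinds them. U5 carries a conserved loop that contacts the exon ends during both steps of splicing. Each of these RNAs also carries an Sm site, a uridine-rich single-stranded stretch around which a ring of Sm proteins closes in the cytoplasm, before the particle returns to the nucleus.

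The sequences below are where most of the counts, or the annotated landmarks, lie. They were read from GRCh38 (hg38) in 5′ to 3′ direction as RNA, and positions are counted from 1 at the annotated 5′ end. The Sm site was searched as AATTTTT and the U5 loop as CTTTNAC, both on the sense strand. Each motif occurs once in the members where it was found: the Sm motif in all 6, the loop motif in the 4 U5 genes. Of the 1901 annotated snRNA genes, 6.73% hold the first and 3.58% the second. In the 4 U5 genes the region of nt 70 to 99 holds the Sm site (capitals, nt 87 to 93) and its upstream flank, and it is shown for each copy because the copies differ there:
RNU5A-1 (chr15:65296120-65296149, + strand): acucugagucuuaacccAAUUUUUugaggc
RNU5B-1 (chr15:65304746-65304775, + strand): acucugagucuuaagcuAAUUUUUugaggc
RNU5D-1 (chr1:44731072-44731101, − strand): guuuugaguuucaagcaAAUUUUUugaagc
RNU5E-1 (chr1:11908221-11908250, + strand): agugugagucugaaaccAAUUUUUugaggc
The loop motif lies at nt 39 to 45 of the 4 U5 genes.
In U4 the sequence of nt 56 to 85 begins with the second stretch that pairs with U6 (nt 56 to 62). The 8 bases of highest summed count (nt 69 to 76) are in capitals:
RNU4-1 (chr12:120293153-120293182, − strand): ugcuaauugaaaaCUUUUCCCaauaccccg
The 3′ hairpin of both U4 copies, nt 88 to 117, is shown with the bases of nt 102 to 106 in capitals:
RNU4-1 (chr12:120293121-120293150, − strand): gugacgacuugcaaUAUAGucggcacuggc
RNU4-2 (chr12:120291787-120291816, − strand): augacgacuugaaaUAUAGucggcauuggc
The 3′ end of U4, nt 112 to 141, carries its Sm site (capitals, nt 118 to 124):
RNU4-1 (chr12:120293097-120293126, − strand): acuggcAAUUUUUgacagucucuacggaga

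A few properties of the whole series bear on these values. DoHH-2 held 2033156 cDNA counts and GM01953 held 167197, a 12.2-fold difference in depth, so levels are given as CPM, the counts for each 1000000 counts of the library. The limit of 3 counts that a count of 0 allows corresponds to 1.48 CPM in DoHH-2 and 17.9 CPM in GM01953. All 6 B-cell marker genes had counts in both tables (1814 in DoHH-2 and 636 in GM01953 in sum, or 892 and 3804 CPM). Of these, 4 were more than 2-fold lower in DoHH-2 and 0 were higher. Over all genes with at least 20 counts in both tables together, 14.9% were lower and 16.8% higher. The median ratio of CPM of the markers, DoHH-2 over GM01953, was 0.225. All 9 markers of T, myeloid and erythroid cells were at 0 in both tables. No input or control immunoprecipitation was used here, so that more RNA and more cross-linking per RNA molecule cannot be told apart.

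In the pooled libraries, the shares of U4 differed by less than the counting error, and U5 took a larger share in GM01953. The 2 U4 genes together had 929 counts in DoHH-2 (95% Poisson interval 870.2 to 990.7) and 79 in GM01953 (62.5 to 98.5). This is 0.0457% of the DoHH-2 library and 0.0472% of the GM01953 library. The 4 U5 genes together had 1880 counts in DoHH-2 (1796 to 1967) and 385 in GM01953 (347 to 425), which is 0.0925% and 0.230% of the libraries. The ratio of the CPM values, DoHH-2 over GM01953, was 0.967 for U4 (exact conditional interval 0.768 to 1.23) and 0.402 for U5 (0.360 to 0.449). U5 therefore made up 66.9% of the U4 and U5 counts in DoHH-2 (Wilson interval 65.2 to 68.6) and 83.0% in GM01953 (79.3 to 86.1). Within 1 library this share does not depend on the library total.

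RNU4-1 (ENSG00000200795) encodes one of the U4 copies, on chr12:120293097-120293237 of the − strand. It had 531 counts in DoHH-2 and 49 in GM01953, or 261 and 293 CPM. The ratio was 0.891 (0.664 to 1.22). RNU4-2 (ENSG00000202538) encodes the other copy, on chr12:120291763-120291903 of the same strand. It had 398 counts in DoHH-2 and 30 in GM01953, or 196 and 179 CPM, a ratio of 1.09 (0.752 to 1.64). Both intervals include 1. Where only positions whose 31 nt downstream occur once in the genome were used, RNU4-1 had a ratio of 0.702 (0.521 to 0.964), below 1, and RNU4-2 of 1.01 (0.691 to 1.53).

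Among the U5 copies, RNU5B-1 differed most between the libraries and RNU5E-1 least. RNU5A-1 (ENSG00000199568, chr15:65296051-65296166, + strand) had 260 counts in DoHH-2 and 52 in GM01953. In CPM these are 128 and 311, a ratio of 0.411 (0.304 to 0.565). RNU5B-1 (ENSG00000200156, chr15:65304677-65304792, + strand) had 435 and 166 counts. At 214 and 993 CPM, its ratio was 0.215 (0.180 to 0.259), so its level in GM01953 was 4.64 times that in DoHH-2. The remaining copies lie on chromosome 1, and the ratio of RNU5D-1 was close to that of RNU5A-1, with intervals that overlap. RNU5D-1 (ENSG00000200169, chr1:44731055-44731170, − strand) had 397 and 74 counts, or 195 and 443 CPM, with a ratio of 0.441 (0.343 to 0.573). RNU5E-1 (ENSG00000199347, chr1:11908152-11908271, + strand) had 788 and 93 counts, or 388 and 556 CPM, with a ratio of 0.697 (0.561 to 0.873). The interval of each U5 copy lies below 1, and that of RNU5B-1 overlaps none of the other 3. After random thinning of DoHH-2 to the smaller total, the interval of RNU5E-1 included 1 (0.753, 0.544 to 1.04), and with words of 21 nt found once that of RNU5A-1 did (0.843, 0.408 to 2.02).

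**Figure D1:**
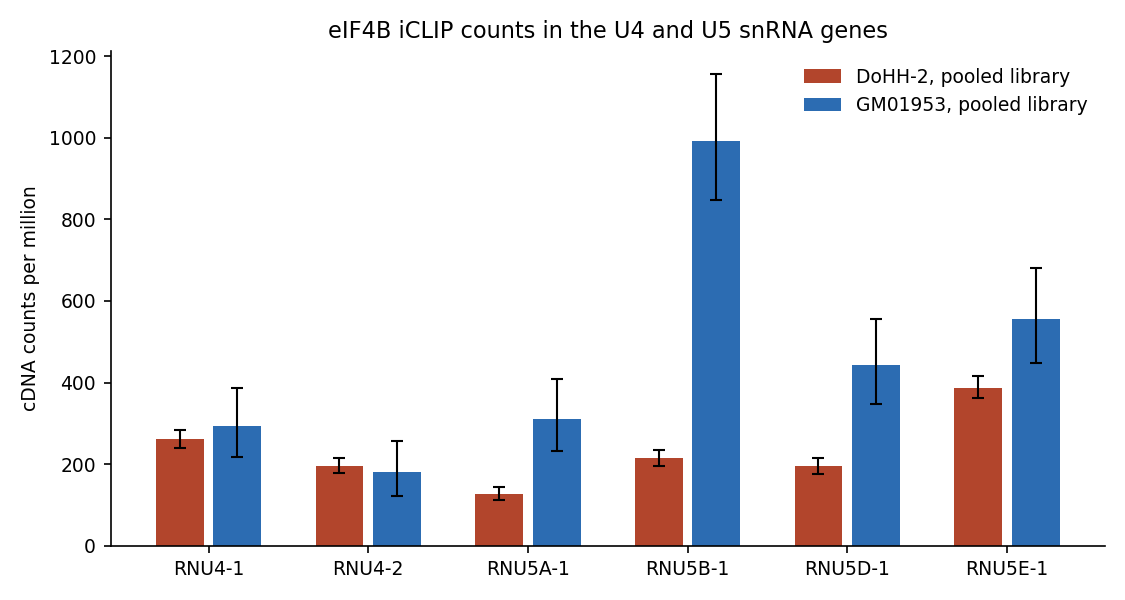
cDNA counts in CPM (vertical axis) in each U4 and U5 gene (horizontal axis) in the pooled DoHH-2 and GM01953 libraries; error bars are exact 95% Poisson intervals of counting error, with no replicate values behind them. The intervals of the cell lines overlap for RNU4-1 and RNU4-2 and do not overlap for the 4 U5 genes, and RNU5B-1 in GM01953 is the highest bar at 993.

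The mix of U5 copies also differed between the libraries. In DoHH-2, RNU5E-1 held 41.9% of the U5 counts (39.7 to 44.2) and RNU5B-1 held 23.1% (21.3 to 25.1). In GM01953 the order of these copies was turned around, with 43.1% in RNU5B-1 (38.3 to 48.1) and 24.2% in RNU5E-1 (20.1 to 28.7). RNU5A-1 made up 13.8% and 13.5%, and RNU5D-1 21.1% and 19.2%, so these copies kept their shares within the intervals. RNU4-1 held 57.2% of the U4 counts in DoHH-2 (54.0 to 60.3) and 62.0% in GM01953 (51.0 to 71.9).

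Over all genes with at least 20 counts in both tables together, 14.9% were more than 2-fold lower in DoHH-2 and 16.8% were more than 2-fold higher. Of the 6 members, 3 were more than 2-fold lower (RNU5A-1, RNU5B-1 and RNU5D-1) and 0 were higher. The median ratio of the members was 0.569 and that of all 10639 genes 1.02. All members had at least 20 counts in each table, and over the 1668 genes for which this held the median was 0.818, with 25.8% lower and 5.10% higher. The intervals of RNU5A-1 and RNU5D-1 reach across the 2-fold line, and after random thinning of the DoHH-2 counts to the GM01953 total the ratio of RNU5A-1 was 0.519. With 6 genes and no replicates, these figures describe the libraries.

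**Figure D2:**
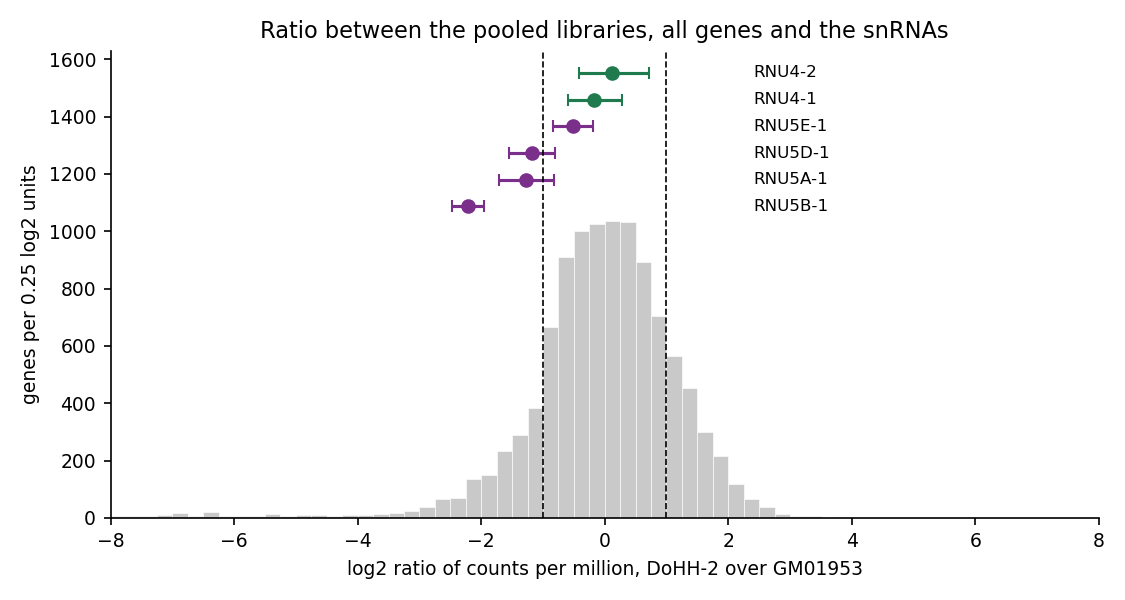
Distribution of the log2 ratio of CPM, DoHH-2 over GM01953 (horizontal axis), over 10639 genes (grey bars, genes per 0.25 log2 units), with the 6 snRNA genes placed above it at their ratio and 95% interval of counting error (green, U4; purple, U5). Dashed lines mark a 2-fold difference. RNU5B-1, RNU5A-1 and RNU5D-1 lie left of the lower line and the U4 genes near 0.

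For their length the members were among the most cross-linked genes of both libraries. Per 100 nt of gene, their levels ran from 110 CPM (RNU5A-1) to 323 (RNU5E-1) in DoHH-2, where they ranked 37th to 66th of 22663 genes with counts. In GM01953 the levels per 100 nt ran from 127 CPM (RNU4-2) to 856 (RNU5B-1). RNU5B-1 ranked 8th and RNU4-2 75th of 12933 genes there. Genes that span introns are much longer than their mature RNA, which lowers their level per length. No count lay on the opposite strand of any member.

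Along U5, counts gathered in the window around the Sm site in every copy and in both cell lines. The window of the Sm motif and 10 nt to each side held 61.1% of the U5 counts in DoHH-2 (58.8 to 63.2) and 77.9% in GM01953 (73.5 to 81.8), with 23.1% of the bases. The 7 bases of the motif alone, 5.98% of the bases, held 33.6% (31.5 to 35.7) and 50.6% (45.7 to 55.6). By copy, the window share in DoHH-2 was 48.1% in RNU5A-1, 62.3% in RNU5B-1, 83.9% in RNU5D-1 and 53.2% in RNU5E-1. In GM01953 it was 71.2%, 85.5%, 82.4% and 64.5% in the same order. RNU5A-1 and RNU5B-1 had higher shares in GM01953 with intervals that do not overlap. Those of RNU5D-1 and RNU5E-1 overlap between the cell lines.

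Within the Sm site, the position of the second adenosine was a recurrent high point. Whether a deposited position is the cross-linked base or the base next to it is not given, so the base named may not be the one cross-linked. Nt 88 held 155 of the U5 counts in DoHH-2 and 61 in GM01953, the highest position in each. In RNU5A-1 it had 26 and 13 counts and in RNU5B-1 51 and 32, first among their positions in both cell lines. In RNU5D-1 it had 43 and 10 counts, second in DoHH-2 and sharing first place with nt 92 in GM01953. RNU5E-1 had 35 and 6 counts there, and its high point was the uridine at nt 91, with 101 and 10. Nt 91 was also second in RNU5B-1 in GM01953, with 29 counts. In RNU5E-1 nt 89 to 91 held the 3 highest counts of DoHH-2, 62, 53 and 101.

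Part of the counts of the Sm window lay upstream of the motif itself, in a cluster at nt 78 to 82 that differed between copies whose bases differ there. It held 19.8% of the U5 counts in DoHH-2 (18.0 to 21.6) and 15.3% in GM01953 (12.1 to 19.3), with 4.27% of the bases. RNU5A-1 and RNU5B-1 read UCUUA there and had their highest counts at the adjacent uridines, nt 80 and 81, with 20 and 22 in RNU5A-1 and 44 and 41 in RNU5B-1 in DoHH-2. RNU5D-1 reads UUUCA, and its high point was the middle uridine at nt 79, with 68 counts in DoHH-2 and 6 in GM01953. RNU5E-1 reads UCUGA and held 7.61% of its DoHH-2 counts in these 5 bases, against 23.5% in RNU5A-1, 26.7% in RNU5B-1 and 34.0% in RNU5D-1. In GM01953 the order was another, with 25.0% in RNU5A-1 (15.2 to 38.2), 18.7% in RNU5B-1, 14.9% in RNU5D-1 (8.51 to 24.7) and 4.30% in RNU5E-1. In DoHH-2 the Sm motif itself held 18.1% of the RNU5A-1 counts and 25.5% of the RNU5B-1 counts. This is less than these 5 bases held in the same copies, with intervals that overlap. The motif held 41.6% in RNU5D-1 and 39.1% in RNU5E-1, and in GM01953 it held more than these 5 bases in every copy. These 5 bases, and the other stretches named by their high counts, were picked after the values were seen.

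The window around the conserved U5 loop, which is as wide as that of the Sm site, held fewer counts. It held 22.3% of the U5 counts in DoHH-2 (20.5 to 24.2) and 11.4% in GM01953 (8.62 to 15.0), at or under its 23.1% of the bases. RNU5E-1 had the highest share in DoHH-2, 35.8% (32.5 to 39.2), and 21.5% in GM01953 (14.4 to 30.9). RNU5A-1 had 22.7% and 17.3%, and RNU5B-1 17.9% and 3.61%. RNU5D-1 had 0 of 397 counts in DoHH-2, for which the Wilson interval reaches 0.958%, and 9 of 74 in GM01953. The 7 bases of the loop motif alone, 5.98% of the bases, held 9.79% of the U5 counts in DoHH-2 (8.52 to 11.2) and 7.01% in GM01953 (4.86 to 10.01). In DoHH-2 these bases held 14.2% in RNU5A-1, 10.6% in RNU5B-1 and 12.8% in RNU5E-1. The DoHH-2 share of the motif was thus above its share of the bases, while that of the wider window was not.

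The empty loop of RNU5D-1 lies in sequence that it shares with another copy. RNU5D-1 and RNU5E-1 are identical from nt 4 to 68, and in that stretch RNU5D-1 had 28 counts and RNU5E-1 337 in DoHH-2. In GM01953 the same stretch had 10 and 29. At nt 1 to 23 alone, RNU5D-1 had 28 counts in DoHH-2 and RNU5E-1 had 3. The 31 nt downstream of each position of the loop motif occur once in the genome in both genes, and the 21 nt 4 to 11 times. The way reads that match both copies were assigned is not given in the sources used here, so the split of such counts between copies is uncertain. Its part in the difference between RNU5D-1 and RNU5E-1 was not tested.

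**Figure D3:**
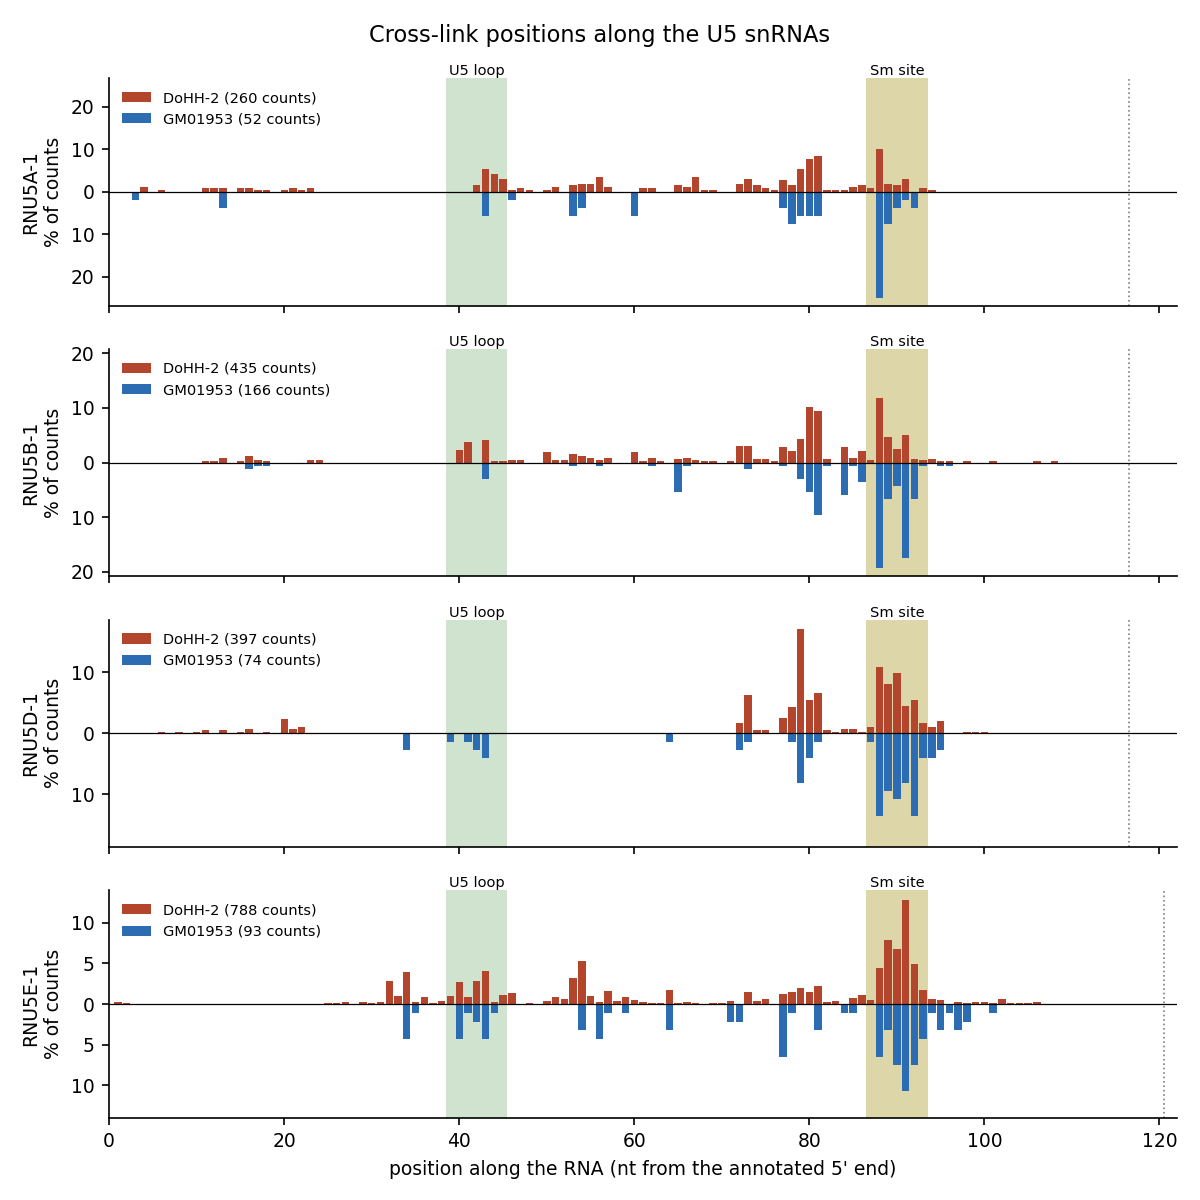
Share of each U5 gene's cDNA counts at every position (vertical axis, percent, DoHH-2 upwards and GM01953 downwards) against the position along the RNA in nt from the annotated 5′ end. Shaded bands mark the loop motif (nt 39 to 45) and the Sm motif (nt 87 to 93), and dotted lines the annotated 3′ end. All 4 genes peak in or just upstream of the Sm band in both cell lines, and RNU5D-1 has no DoHH-2 counts in the loop band.

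Along U4, the counts gathered in a central stretch and in part of the 3′ hairpin. Nt 69 to 76 held 34.2% of the U4 counts in DoHH-2 (31.2 to 37.3) and 43.0% in GM01953 (32.7 to 54.0), with 5.67% of the bases. Nt 102 to 106 held 17.7% (15.3 to 20.2) and 22.8% (14.9 to 33.2), with 3.55% of the bases. Nt 69 was the highest U4 position in DoHH-2, with 71 counts. In GM01953 it shared the first place with nt 102, at 10 counts each.

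RNU4-1 and RNU4-2 shared nt 69 as a high point and differed in the rest. In DoHH-2, nt 69 was first in both, with 39 and 32 counts. Nt 70 and 76 came next in RNU4-1, with 36 and 31 counts. RNU4-2 had 32 counts at nt 104 and 24 at nt 103, in the hairpin. The central stretch held 38.4% of the RNU4-1 counts and 28.6% of the RNU4-2 counts in DoHH-2. The 5 hairpin bases held 13.6% and 23.1%. The copies differ at C37U, G88A, C99A and C113U (the base of RNU4-1, the position, the base of RNU4-2) and are identical from nt 38 to 87. A cDNA runs downstream from the cross-link, so only the bases after it can tell the copies apart. The 31 nt downstream of each position of nt 69 to 76 occur once in the genome in both genes. At nt 102 to 106 this holds for 5 of 5 positions of RNU4-2 and 4 of 5 of RNU4-1. With 21 nt it holds for 8 of 8 central positions of RNU4-2 and 4 of 8 of RNU4-1. In the hairpin it holds for 0 of 5 positions of RNU4-2 and 2 of 5 of RNU4-1. These 21 nt always take in nt 88 or nt 113, where the copies differ, so the further matches are other loci. How reads that match several loci were assigned is not given, so for shorter cDNAs the gene of origin is uncertain at such positions. In GM01953, RNU4-1 had 6 counts at nt 69, 5 at nt 73 and 5 at nt 102, and RNU4-2 had 5 at nt 102, 4 at nt 69 and 3 at nt 76. These counts are too few to rank the positions.

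Of the stretches through which U4 pairs with U6, the first held few counts and the second about its share of the bases. Nt 5 to 12 of U4 are complementary to nt 63 to 70 of U6, and held 5 counts in DoHH-2 (0.538%, with 5.67% of the bases) and 0 in GM01953. The 31 nt downstream of these positions occur 2 to 6 times in the genome, and how such reads were counted is not given in the sources used here. Nt 56 to 62, complementary to nt 50 to 56 of U6, held 40 in DoHH-2 (4.31%, 3.18 to 5.81, with 4.96% of the bases) and 2 in GM01953. The high counts of the central stretch began 7 nt after this second stretch.

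The Sm site of U4 did not gather counts the way that of U5 did. The window of the motif and 10 nt to each side held 4.20% of the U4 counts in DoHH-2 (3.09 to 5.69) and 8.86% in GM01953 (4.36 to 17.2), with 19.1% of the bases. RNU4-1 had 0 counts in the 7 bases of the motif in both cell lines. RNU4-2 had 9 there in DoHH-2 and 3 in GM01953. The U4 Sm site lies closer to the annotated 3′ end, however, with 17 bases after it, against 23 to 27 in U5. Positions that leave 17 to 23 bases to the 3′ end held 0.969% of the U4 counts and 2.45% of the U5 counts in DoHH-2, and 3.80% and 4.42% in GM01953. Positions that leave 24 to 28 bases held 0.431% of the U4 counts and 19.5% of the U5 counts in DoHH-2, and 0 and 43.9% in GM01953. No member had a count in its last 8 bases. A cDNA that starts this close to the end is short. The U4 copies last differ at nt 113, so the split of the counts at their Sm site between them is uncertain. The 21 nt downstream of each base of the U4 motif occur 5 times in the genome, against 1 or 2 times in U5. Little cross-linking at the U4 Sm site, the loss of short cDNAs and the loss of reads that match several loci cannot be told apart.

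**Figure D4:**
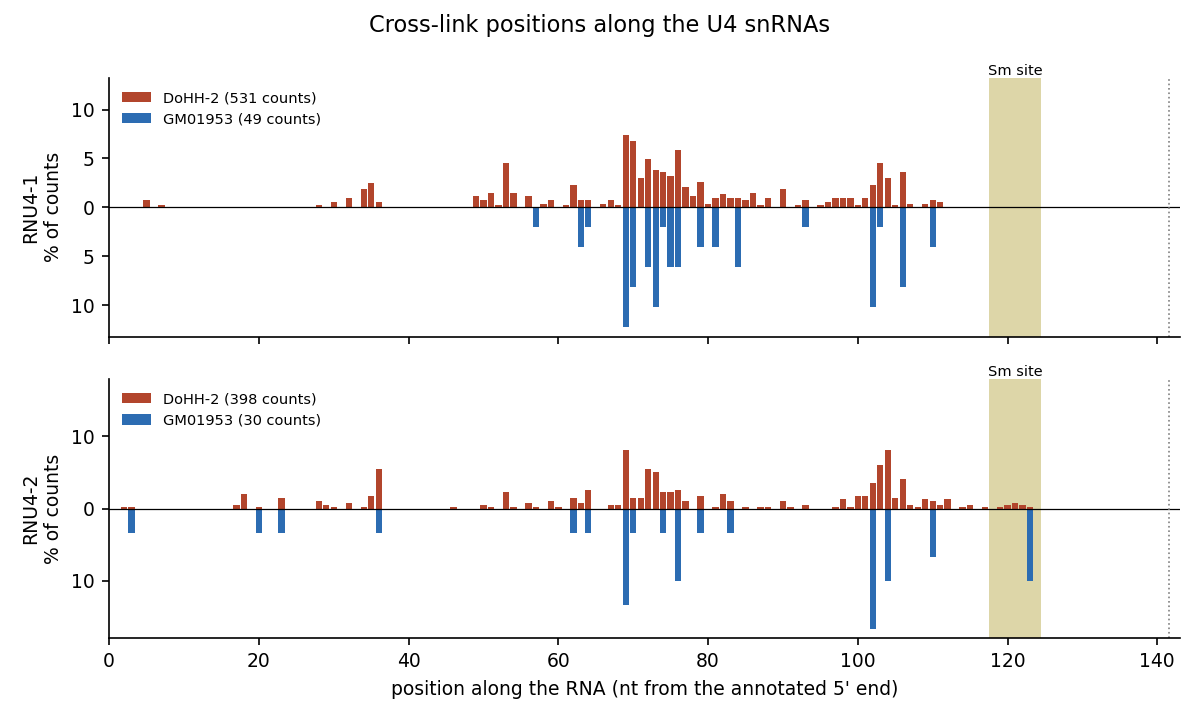
Share of each U4 gene's cDNA counts at every position (vertical axis, percent, DoHH-2 upwards and GM01953 downwards) against the position along the RNA in nt from the annotated 5′ end. The shaded band marks the Sm motif (nt 118 to 124) and the dotted line the annotated 3′ end. Both genes peak at nt 69 to 76 and again at nt 102 to 106, and RNU4-1 has no counts in the Sm band.

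Cross-links lay at uridine and at bases left unpaired in the predicted fold more often than these make up the RNAs. Uridine took 61.6% of the U5 counts in DoHH-2 (59.4 to 63.8) and 62.3% in GM01953 (57.4 to 67.0), with 36.5% of the bases. It took 40.3% (37.2 to 43.4) and 45.6% (35.0 to 56.5) of the U4 counts, with 27.7% of the bases. Cytidine, 23.0% of the U4 bases, held 25.7% and 35.4% of its counts. UV cross-linking itself favours uridine.

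Bases that RNAfold left unpaired held 68.7% of the U4 counts in DoHH-2 (65.6 to 71.6) and 83.5% in GM01953 (73.9 to 90.1), with 50.4% of the bases. They held 52.9% (50.6 to 55.1) and 54.8% (49.8 to 59.7) of the U5 counts, with 33.8% of the bases. The fold is that of the RNA alone, without U6 or proteins, and it differs between the U5 copies: nt 79 to 81 are predicted as unpaired in RNU5A-1 and RNU5E-1 and as paired in RNU5B-1 and RNU5D-1, although RNU5A-1 and RNU5B-1 carry the same bases there.

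The profiles of the cell lines were alike in part. Summed over copies, the counts by position had r = 0.897 between DoHH-2 and GM01953 for U5 (Spearman's rho 0.721, 120 positions) and r = 0.729 for U4 (rho 0.541, 141 positions). These correlations run over positions of the same RNAs, which share base composition and are not independent. Among the high points, nt 79 of RNU5D-1 came first in DoHH-2 and was not among its 3 highest in GM01953. Nt 103 of U4 had 48 of 929 counts in DoHH-2 and 1 of 79 in GM01953. Both cases rest on few GM01953 counts, 6 at nt 79 of RNU5D-1 and 1 at nt 103 of U4, too few to rank these positions. Of the 95 U5 positions with a count in GM01953, 83 also had one in DoHH-2, which is 87.4% of the GM01953 positions and 35.9% of the DoHH-2 positions. For U4 it was 33 of 34, or 97.1% and 24.8%. Between copies in DoHH-2, RNU5A-1 and RNU5B-1 were most alike (r = 0.858). RNU5D-1 was closest to RNU5B-1 (0.688), RNU5E-1 to RNU5D-1 (0.518), and RNU4-1 to RNU4-2 (0.734). In GM01953, RNU5B-1 was closest to RNU5D-1 (0.723). Copies that share sequence can also share reads.

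The deposited FDR, which compares a position with random placement of the counts within its gene, was below 0.05 at 44.2% of the members' positions in DoHH-2 (161 of 364), against 21.5% of all positions. In GM01953 it was below 0.05 at 42.6% (55 of 129), against 36.6% of all. For U5 the shares were 45.9% and 47.4%, and for U4 41.4% and 29.4%, the latter with 10 of 34 positions.

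Whether the sequence identifies the gene depends on the length of the cDNA, which the deposited tables do not give. The 31 nt downstream of the position occur once in the genome for 83.3% of the U4 counts and 87.2% of the U5 counts in DoHH-2, and for 98.7% and 94.8% in GM01953. The 21 nt downstream occur once for 45.4% and 72.3% in DoHH-2 and for 49.4% and 78.7% in GM01953. By this shorter word RNU5A-1 kept 31.5% of its DoHH-2 counts and RNU5D-1 92.9%. Near the 3′ end a 31 nt word runs past the annotated RNA into the flanking genome, as it did for 28.1% of the U5 counts in DoHH-2 and 51.2% in GM01953. RNU4-1 and RNU4-2 are 97.2% identical, RNU5A-1 and RNU5B-1 94.0%, and the other U5 pairs 81.9% to 86.7%. For this reason the sums over U4 and over U5 are firmer than the values of single copies.

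Further loci related to U5 also had counts. RNU5F-1, a variant U5 gene on chromosome 1, had 177 counts in DoHH-2 and 47 in GM01953. RNU5E-4P had 590 and 53, RNU5E-6P 563 and 131, and RNU5A-8P 182 and 27. GENCODE names the last 3 as pseudogenes by symbol. With these 4 loci added, the ratio for U5 was 0.434 (0.399 to 0.473), and for the 4 loci alone it was 0.482 (0.422 to 0.552). The share within 10 nt of their own Sm motif was 46.9% in DoHH-2 and 62.3% in GM01953 for RNU5E-4P, 72.6% and 89.3% for RNU5E-6P, 26.4% and 22.2% for RNU5A-8P, and 14.1% and 70.2% for RNU5F-1. The 88 annotated U4 pseudogenes had 35 and 14 counts in all.

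Of 18 other snRNAs listed by name, most had few or no counts. In DoHH-2 8 were at 0 and in GM01953 11, among them the 4 listed RNU1 genes, RNU2-1 and RNU6-1 in both. How reads that match several loci were assigned is not given in the sources used here. A count of 0 therefore does not show that an RNA was not cross-linked. Of the 7 with at least 20 counts in both tables together, 1 was more than 2-fold higher in DoHH-2 and 3 were lower, with a median ratio of 0.675. Over all genes with that many counts, 16.8% were higher and 14.9% lower, with a median of 1.02. RNU7-1, the RNA that processes the 3′ ends of histone mRNAs, had the most in DoHH-2, with 538 counts and 226 in GM01953 (ratio 0.196). RNU12 and RNU11 of the minor spliceosome followed, with 409 and 41 (0.820) and with 394 and 48 (0.675). Of all counts in annotated snRNA genes, the 6 members held 24.8% in the DoHH-2 table and 27.0% in the GM01953 table.

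The genes of the proteins that partner U4 and U5, counted over their whole spans with introns, had median ratios above 1. Of 19 genes for proteins of the tri-snRNP and its assembly, 7 were more than 2-fold higher in DoHH-2 and 0 were lower, with a median ratio of 1.62. Over all genes with at least 20 counts in both tables together, 16.8% were higher and 14.9% lower, with a median of 1.02. The 7 higher genes had only 1 to 8 counts each in GM01953, and counts under 3 were set to 3. SNRNP200, the helicase that unwinds U4 from U6, had 562 counts in DoHH-2 and 34 in GM01953 (ratio 1.36). PRPF8, the large U5 protein at the heart of the spliceosome, had 502 and 39 (1.06), and PRPF3 of the U4/U6 particle 344 and 8 (3.54). Of 19 listed genes for Sm proteins and their loading complexes, 18 had at least 20 counts, of which 4 were higher and 1 was lower, with a median of 1.39. The Sm protein genes SNRPB, SNRPF and SNRPD1 had 662 and 34, 432 and 26, and 418 and 26 counts (ratios 1.60, 1.37 and 1.32). These lists were drawn up by name and describe the libraries only.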

How the data were processed

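iCLIP of eIF4B in DoHH-2 (4 labelled replicates) and GM01953 (2) is the work of the authors, who deduplicated reads with BBMap, split barcodes with Je, aligned to GRCh38 with HISAT2 and ran iCount on the merged replicates. Versions of these tools are not given in the sources used here. The deposited cDNA counts are whole numbers per cross-link position that were not normalized, in 1 table per cell line. The deposited FDR (an adjusted p-value) comes from iCount and was used only as a threshold of 0.05. No column held values of other samples (0).

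Positions listed for several genes were counted once. Base composition around the positions differed between strands by at most 2.11 (DoHH-2) and 2.79 (GM01953) percentage points when deposited positions were read as counted from 0, and by up to 17.7 and 18.9 when read from 1, so 1 was added to each. Whether the deposited position is the cross-linked base or the base next to it is not given in the sources used here.

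Spans came from GENCODE 44. CPM used all counts of a table. Poisson, Wilson and exact conditional binomial intervals were computed with scipy 1.17.1 (Python 3.11.15, numpy 2.4.6, pandas 2.3.3), sequences read with pysam 0.24.0, copies aligned with MAFFT 7.526 and folds predicted with RNAfold of ViennaRNA 2.7.2. Ratios past 2-fold were counted over genes with at least 20 counts in both tables together, with counts under 3 set to 3. Words of 31 and 21 nt were searched over the genome. The sums over spans, the count of genes past 2-fold and the numbering along the RNA had been tested on simulated data, and the other steps had not. Alternatives covered the span, the FDR, the denominator, depth, the window and the position.

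Named are all members, the 3 highest positions of each member and cell line, the 3 genes with most DoHH-2 counts of each list, and for each member the copy with the most similar profile. Other positions, spans and U5-related loci were chosen after their values were seen. Members and lists were chosen with earlier results of these data known. The sequence around the U5 loop is not reported here.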

Additional observations from a re-analysis of the deposited data

Results flagged for a closer look

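The 20 nt to each side of the annotated spans lie outside the comparisons above, and 3 of these flanks held more than the 3 counts that a count of 0 allows. In DoHH-2, RNU5E-1 had 13 counts in the 20 nt upstream of its 5′ end and 12 in the 20 nt downstream of its 3′ end, beside 788 inside the gene. RNU5A-1 had 4 counts upstream in DoHH-2, beside 260 inside. In GM01953 the U5 flanks had 0 counts.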

How the results depend on the processing

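No paired analysis was possible because the values of the replicates were pooled before deposit, and for the same reason no replicate could be left out. Of 79 alternative values for the main results, 43 stayed within the interval (for numbers of genes, within 1.5 times) and 36 moved. None turned the direction of a ratio that its interval set apart from 1. The cause of each move was not tested beyond what its construction sets.

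With an FDR below 0.05 only, the counts were 632 (U4) and 1507 (U5) in DoHH-2 and 34 and 279 in GM01953, and with unique words of 31 nt only, 774 and 1639 in DoHH-2. With counts inside annotated genes as denominator, U5 was 0.0980% of DoHH-2 and 0.260% of GM01953. With each position counted as 1, which removes the heights, U4 and U5 were 0.0113% and 0.0196% of the DoHH-2 positions. U5 was 0.121% of the GM01953 positions, and the ratios of positions were 0.260 for U4 and 0.162 for U5. In RNAs this short the number of positions has a ceiling. Even with a count at every base in DoHH-2 (282 in U4, 468 in U5), these ratios would stay below 1. They therefore cannot decide whether the U4 ratio near 1 holds. The single genes' ratios of positions, which have such a ceiling too, ran from 0.117 to 0.291, with RNU4-2, which was above 1 in counts, at 0.291. With DoHH-2 thinned to the total of GM01953, the ratios were 1.03 for U4 and 0.408 for U5, RNU5A-1, at 0.519, was no longer past 2-fold, and the interval of RNU5E-1 included 1 (0.753, 0.544 to 1.04). With unique words of 31 nt, RNU4-1 had 0.702 (0.521 to 0.964). With unique words of 21 nt, RNU5A-1 had 0.843 (0.408 to 2.02) and RNU5B-1 0.170, while U4 had 0.890 and U5 0.369.

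With positions moved by 1 nt upstream and downstream, uridine took 34.8% and 44.6% of the U4 counts and 55.8% and 65.0% of the U5 counts in DoHH-2, and 54.0% and 68.8% of the U5 counts in GM01953. It took 25.3% of the GM01953 U4 counts upstream, under its share of the bases. Unpaired bases took 73.4% (U4, downstream) and 59.7% (U5, upstream) in GM01953. With a window of 5 nt the Sm site held 1.40% and 3.80% (U4) and 38.9% and 60.3% (U5) in DoHH-2 and GM01953, and the loop 13.8% in DoHH-2. With positions counted as 1, the Sm window held 12.0% (U4) and 36.8% (U5) in DoHH-2 and 58.9% (U5) in GM01953, and the loop window 20% in GM01953.

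Past 4-fold, 251 genes were higher and 526 lower in DoHH-2. With at least 50 counts, 892 were lower. With at least 20 counts in each table, 85 were higher and 431 lower. This last setting, the reading of positions from 1, the U5-related loci and the unique words in the ratios were chosen after seeing the data. Depth limits the profile of GM01953, where U4 rests on 79 counts.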
